A study of Homo sapiens with 18 samples.

Results

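Metallothioneins are small cysteine-rich proteins that bind zinc and copper. Here 5 metallothionein genes (MT1E, MT1F, MT1G, MT1X and MT2A) were followed after loss of fibrillarin, together with MTF1, the zinc-sensing transcription factor that switches them on, and SLC30A1, the zinc exporter of the plasma membrane. The 7 genes were chosen by name, and each of the 7 was present among the 17017 gene symbols of the deposited table. The study used MDA-MB-231, an established human line of triple-negative breast carcinoma. Cells had received lentivirus coding for a scramble hairpin or for 1 of 2 short hairpin RNAs against the mRNA of fibrillarin (FBL), the nucleolar methyltransferase that modifies ribosomal RNA. The treatment labels are SC, read here as the scramble control, and SH2 and SH3. Each hairpin is a single sequence, and no clones are named. All groups shared the same medium with serum and added insulin, 96 h of puromycin (1 µg/ml), a change of medium, and a 5 min exposure to cycloheximide (100 µg/ml), which halts elongating ribosomes, before lysis. For each treatment, 3 replicates of cytoplasmic RNA and 3 of ribosome footprints were sequenced. The labels do not say whether replicates were separate cultures, so the p-values measure the spread between these libraries.

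When free zinc rises in a cell, MTF1 binds short DNA motifs called metal response elements and raises transcription of metallothionein genes and of SLC30A1. The metallothioneins then buffer the metal, and the exporter removes it from the cytosol. Metallothionein transcription also responds to glucocorticoids and to oxidants, and transporters of the SLC39 family bring zinc into the cytosol. MT1 and MT2 genes lie side by side on chromosome 16 and are close copies of each other, so short reads can match several of them. How such reads were assigned is not given in the sources used here.

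The sequences just upstream of the start sites are shown because the metal response element links 3 of these genes to the fourth. The set of promoter sequences used here (GRCh38.p14) held an entry for 4 of the 7 members, of which 250 bases before the start are considered. It held none for MT1E, MT1F and MT1G, so their promoters were not searched. Capitals mark each match to the core of the metal response element, searched as TGCGCNC and TGCACNC on both strands.
MT2A promoter (chr16:56608334-56608583, plus strand): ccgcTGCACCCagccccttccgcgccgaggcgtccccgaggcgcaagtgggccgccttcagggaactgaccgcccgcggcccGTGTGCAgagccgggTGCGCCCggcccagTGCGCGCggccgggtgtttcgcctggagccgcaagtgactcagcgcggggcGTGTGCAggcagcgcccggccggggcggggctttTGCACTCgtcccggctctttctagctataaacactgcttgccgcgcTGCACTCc
MT1X promoter (chr16:56682220-56682469, plus strand): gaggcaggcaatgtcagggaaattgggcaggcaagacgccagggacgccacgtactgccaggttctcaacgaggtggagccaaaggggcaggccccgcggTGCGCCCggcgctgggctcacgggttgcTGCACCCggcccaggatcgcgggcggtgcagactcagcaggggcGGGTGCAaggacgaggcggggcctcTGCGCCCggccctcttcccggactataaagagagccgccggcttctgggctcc
SLC30A1 promoter (chr1:211579162-211579411, minus strand): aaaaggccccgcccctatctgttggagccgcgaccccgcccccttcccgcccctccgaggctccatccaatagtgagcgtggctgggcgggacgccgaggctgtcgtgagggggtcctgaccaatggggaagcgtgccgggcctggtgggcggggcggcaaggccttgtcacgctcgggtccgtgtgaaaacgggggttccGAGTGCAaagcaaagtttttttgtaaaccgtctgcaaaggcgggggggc
The MT2A window held 7 matches and the MT1X window 4. Among all 35116 promoter windows of this length, 0.37% held at least 4. SLC30A1 had 1 match, where 24.8% of windows had at least 1, and the MTF1 window (chr1:37859593-37859842, minus strand) had 0. Both MT2A and MT1X had the promoter motif TATAAA upstream of the start, held by 6.8% of windows on the gene's strand. A match is a description of the letters and no evidence of binding.

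**Figure D1:**
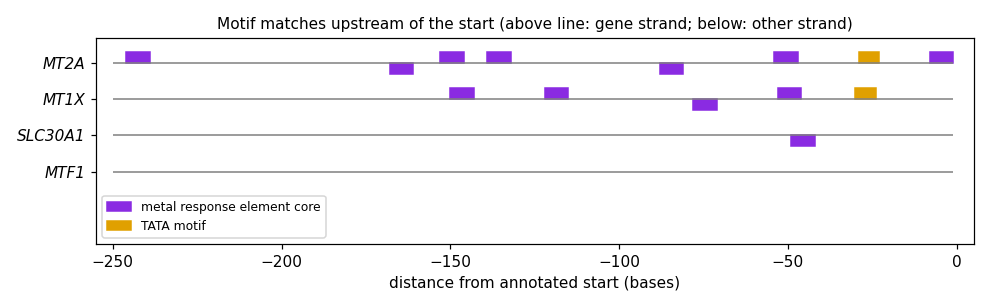
Positions of metal response element cores (purple) and the TATA motif (orange) in the 250 bases before the annotated start of 4 genes, in bases from the start; marks above a line lie on the gene's strand and marks below it on the other. MT2A has 7 cores and MT1X 4, SLC30A1 has 1 and MTF1 has 0.

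RNA libraries held 23469830 to 27629488 counts and footprint libraries 1662705 to 6098648. FBL stood at 349 to 421 CPM (counts divided by the scaled size of their library) in SC RNA, at 1.26 to 11.2 in SH2 and at 2.95 to 4.15 in SH3. All 6 markers of mesenchymal-type breast carcinoma cells, VIM and CD44 among them, exceeded 1 CPM in every library, while the oestrogen and progesterone receptors ESR1 and PGR had group means of at most 0.0672 CPM in RNA. Of the 6 luminal and hormone-receptor markers, 2 to 3 exceeded 1 CPM in RNA, GATA3 with group means of 8.03 to 11.2 CPM and EPCAM with 5.66 to 7.94 CPM among them. The summed RNA of 7 markers of leukocytes, endothelium and fibroblasts ranged from 30.7 to 46.3 CPM in SC, 54.3 to 104.8 in SH2 and 64.0 to 79.9 in SH3. COL1A1 carried most of it (SC 32.2 ± 8.92 CPM, SH2 76.7 ± 25.1, SH3 68.7 ± 7.98, SD, n = 3 each), while the fibroblast markers DCN and COL1A2 had RNA means of at most 0.138 CPM. In the SC and SH2 groups, RNA library 1 went with footprint library 2 rather than with its own number. Across genes, deviations from the group mean had r = -0.49 between SC RNA 1 and SC footprints 1 and 0.576 between SC RNA 1 and SC footprints 2, and in SH2 these values were -0.304 and 0.563. No ratio of single libraries is therefore given, and the tests below do not pair libraries unless a block is named.

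RNA of the tested metallothioneins, MT1E, MT1X and MT2A, fell in both hairpin groups. The 5 members with enough counts to be tested were these, MTF1 and SLC30A1. All 5 were called lower in SH2 RNA, against 30.4% of all genes tested. In SH3, 4 of the 5 were called lower (MT1E, MT1X, MT2A and MTF1), against 25.2% of all genes. "Called" means an adjusted p under 0.05 in edgeR's quasi-likelihood test, adjusted over all genes tested. The SC libraries served as reference for SH2 and SH3 alike. In bulk samples, fewer cells making an RNA and less RNA per cell cannot be told apart.

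MT2A, the most widely expressed human metallothionein, stood at 859, 476 and 691 CPM in SC RNA for replicates 1, 2 and 3. It stood at 358, 289.5 and 340.2 CPM in SH2 and at 299, 362 and 296 in SH3. Every hairpin library lay below every SC library, and SC replicate 2 was the nearest to them. The log2 change was -1.04 in SH2 (edgeR adjusted p 0.00013, SE 0.17) and -1.08 in SH3 (edgeR adjusted p 0.000138, SE 0.17), so that 48.8% and 47.3% of the SC mean remained. Between the hairpins the test was not passed (log2 difference 0.045 with SE 0.169, edgeR adjusted p 0.855).

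MT1E, an MT1 isoform found in many tissues, was measured at 89.8, 47.2 and 63.5 CPM in SC RNA. SH2 libraries had 56.3, 25.8 and 34.9 CPM and SH3 libraries 26.3, 25.8 and 24.0. The SH3 libraries all lay under SC, while SH2 replicate 1 overlapped the SC range. The log2 changes were -0.78 in SH2 (edgeR adjusted p 0.0129, SE 0.24) and -1.40 in SH3 (edgeR adjusted p 0.000361, SE 0.25). The SH2 call was lost without SC replicate 1 (-0.52, edgeR adjusted p 0.0599), without SH2 replicate 2 (-0.56, adjusted p 0.0628) and without SH2 replicate 3 (-0.73, adjusted p 0.0585). MT1E RNA was 0.62 higher in SH2 than in SH3 on the log2 scale (edgeR adjusted p 0.0619, SE 0.25), a difference that was called in 4 of 13 alternatives. These were the replicate block (0.54, edgeR adjusted p 0.00893), the omission of SH2 replicate 2 (0.87, edgeR adjusted p 0.0136), no filter on low counts (edgeR adjusted p 0.0158) and a fit of only the groups compared (edgeR adjusted p 0.027).

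For MT1X, another MT1 isoform, SC RNA libraries had 46.9, 31.5 and 36.3 CPM. SH2 had 28.4, 24.2 and 23.5 CPM and SH3 had 18.9, 25.9 and 20.8. No hairpin library reached the lowest SC library. Its log2 changes were the smallest of the 3 tested metallothioneins, -0.59 in SH2 (edgeR adjusted p 0.00425, SE 0.15) and -0.81 in SH3 (edgeR adjusted p 0.000655, SE 0.16), and both held under every alternative tried.

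MT1F and MT1G were barely detected and passed no filter. MT1F had 4, 4 and 1 RNA counts in the SC libraries, 9, 3 and 7 with SH2 and 1, 1 and 0 with SH3, with 1 footprint count in all 9 libraries together. MT1G had 0 to 3 RNA counts in each library and 2 footprint counts, both in SC. With a floor of 3 counts per library, MT1G in all groups and MT1F in SH3 were at or under it, and no fold is given for either. The nearest relatives outside the member list gave further values. MT1A had 89, 78 and 82 RNA counts in the SC libraries, 30, 44 and 36 with SH2 and 30, 38 and 11 with SH3, and it fell by 1.29 (edgeR adjusted p 0.00291, SE 0.32) and 1.66 (edgeR adjusted p 0.000848, SE 0.33) on the log2 scale. Of the 10 further metallothionein genes and pseudogenes listed, 6 were in the table, and MT1A was the one tested in RNA.

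MTF1, the transcription factor, separated the hairpins. Its RNA stood at 42.0, 31.4 and 34.0 CPM in SC, at 14.2, 15.8 and 14.4 in SH2 and at 31.1, 25.2 and 27.5 in SH3. SH2 libraries lay far under all others, and the highest SH3 library was just under the lowest SC library. The log2 change was -1.27 in SH2 (edgeR adjusted p 1.92e-06, SE 0.13) and -0.36 in SH3 (edgeR adjusted p 0.0274, SE 0.13). The SH3 call was lost when libraries were scaled by their totals alone (-0.27, edgeR adjusted p 0.0747) and without SC replicate 1 (-0.24, edgeR adjusted p 0.113), SH3 replicate 2 (-0.32, edgeR adjusted p 0.0803) and on leaving out SH3 replicate 3 (-0.38, edgeR adjusted p 0.0588). The direct comparison gave a log2 difference of -0.92 between SH2 and SH3 (edgeR adjusted p 0.000107, SE 0.13).

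SLC30A1, which exports zinc, was lower in SH2, as MTF1 was, and was not called in SH3. SC RNA libraries had 55.1, 56.3 and 50.8 CPM and SH2 libraries 29.5, 37.9 and 38.2. SH3 libraries had 49.9, 60.7 and 67.1 CPM, on both sides of SC. The log2 change was -0.62 in SH2 (edgeR adjusted p 0.000827, SE 0.13) and 0.13 in SH3 (edgeR adjusted p 0.397, SE 0.13), and SH2 lay 0.75 below SH3 (edgeR adjusted p 0.00046, SE 0.13). SLC30A1 and MTF1 were the 2 members called lower in SH2 than in SH3 RNA, against 20.4% of all genes.

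**Figure D2:**
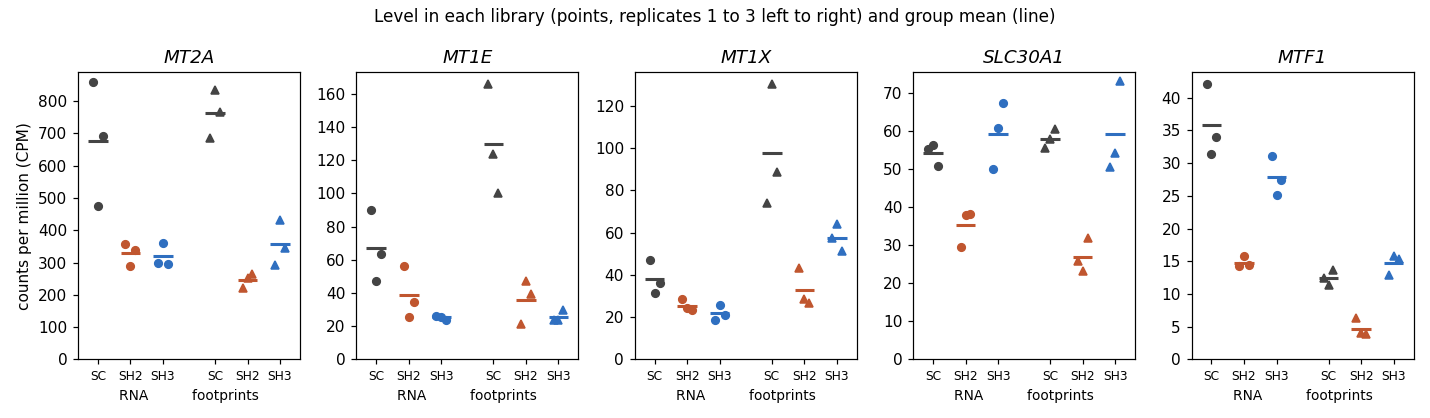
RNA (circles) and footprint (triangles) levels of 5 genes in CPM, 1 point per library and a line at the group mean of 3 replicates, for SC, SH2 and SH3, each panel on its own axis. MT2A falls from a mean of 675 CPM in SC RNA to 329 in SH2 and 319 in SH3, while SLC30A1 and MTF1 footprints are low in SH2 alone.

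Footprints of the same genes, in CPM, report reads from ribosomes on their mRNAs relative to the scaled size of the library, not a total number of ribosomes. All 5 tested members were called lower in SH2 footprints, against 23.2% of all genes, and 3 of 5 in SH3, against 19.0% (1968 of 10345). The 3 lower in SH3 were MT1E, MT1X and MT2A. In the direct comparison, 4 of 5 were lower in SH2 than in SH3, against 11.6% of all genes.

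MT2A footprints stood at 687, 836 and 765 CPM in SC, at 221, 254 and 266 in SH2 and at 294, 432 and 344 in SH3. The 3 groups did not overlap. The log2 change was -1.63 in SH2 (edgeR adjusted p 1.38e-06, SE 0.15) and -1.09 in SH3 (edgeR adjusted p 6.84e-05, SE 0.15). SH2 was 0.53 lower than SH3 (edgeR adjusted p 0.0184, SE 0.15), a call lost without SH2 replicate 1 (-0.46, edgeR adjusted p 0.0759) and on leaving out SH3 replicate 2 (-0.37, edgeR adjusted p 0.129).

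MT1E had the deepest footprint fall of the members in both hairpins. SC libraries had 166, 124 and 100.1 CPM, SH2 libraries 21.5, 47.1 and 39.5, and SH3 libraries 23.4, 24.0 and 29.4. Every hairpin library lay far under the lowest SC library. The log2 changes were -1.83 in SH2 (edgeR adjusted p 2.08e-05, SE 0.24) and -2.33 in SH3 (edgeR adjusted p 8.08e-06, SE 0.25), from 40 to 202 counts per hairpin library. The SH2 and SH3 libraries did not differ past the threshold (0.50 with SE 0.26, edgeR adjusted p 0.178), except without SH2 replicate 1 (0.76, edgeR adjusted p 0.032).

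MT1X footprints were at 74.2, 131 and 88.9 CPM in SC, 43.3, 28.4 and 26.9 in SH2 and 57.4, 64.0 and 51.5 in SH3. SH2 libraries were the lowest and SH3 libraries lay between SH2 and SC, with no overlap. The change was -1.57 in SH2 (edgeR adjusted p 4.09e-05, SE 0.22) and -0.75 in SH3 (edgeR adjusted p 0.0124, SE 0.21). The SH3 value missed the threshold without SC replicate 2 (-0.49, edgeR adjusted p 0.051) and on leaving out SH3 replicate 3 (-0.66, edgeR adjusted p 0.0641). SH2 was lower than SH3 by a log2 difference of -0.82 (edgeR adjusted p 0.0151, SE 0.23), which missed it without SH2 replicate 2 (edgeR adjusted p 0.0721), SH2 replicate 3 (0.0741) or SH3 replicate 2 (0.0747).

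The regulator and the exporter fell in SH2 footprints, with no call in SH3. MTF1 footprints rested on few counts, with 77, 27 and 77 in SC, 17, 17 and 12 in SH2 and 22, 46 and 44 in SH3. As levels these were 12.5, 11.4 and 13.7 CPM, then 6.30, 3.96 and 3.88, then 12.9, 15.8 and 15.4. SH2 libraries lay under all others, and SH3 overlapped SC. The log2 change was -1.45 in SH2 (edgeR adjusted p 0.000367, SE 0.26) and 0.23 in SH3 (edgeR adjusted p 0.462, SE 0.23). SLC30A1 footprints were at 55.5, 57.7 and 60.5 CPM in SC, 25.9, 23.1 and 31.7 in SH2 and 50.4, 54.1 and 72.9 in SH3. Here too SH2 stood alone, with a change of -1.11 (edgeR adjusted p 0.000144, SE 0.18) against 0.038 in SH3 (edgeR adjusted p 0.881, SE 0.17). The differences between SH2 and SH3 were -1.68 for MTF1 (edgeR adjusted p 0.000392, SE 0.27) and -1.15 for SLC30A1 (edgeR adjusted p 0.000367, SE 0.18), and neither call was lost under any alternative tried.

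**Figure D3:**
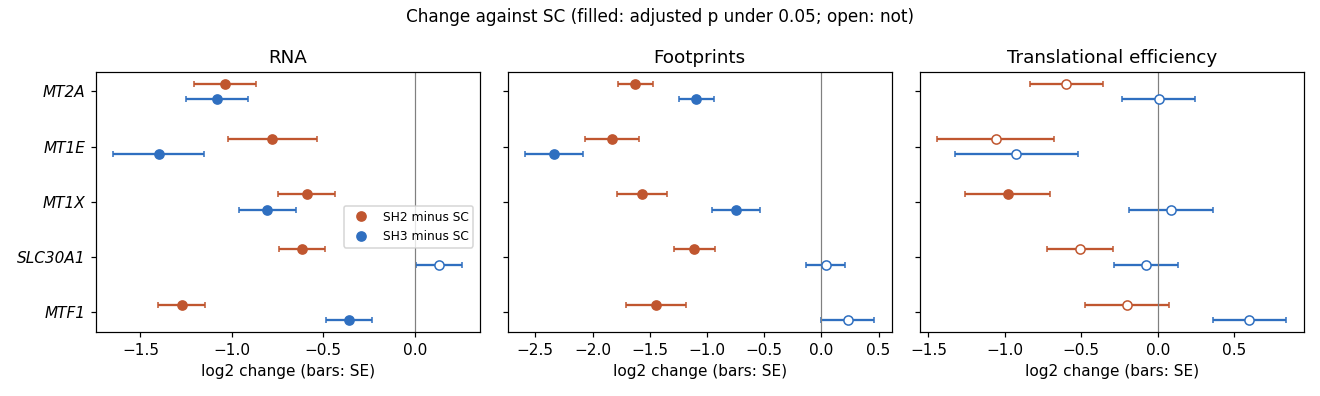
Log2 change against SC with its SE for 5 genes in RNA, footprints and translational efficiency, SH2 in orange and SH3 in blue, filled where the edgeR adjusted p was under 0.05. The metallothioneins are lower in both hairpins in RNA and footprints, MTF1 and SLC30A1 footprints in SH2 alone, and in translational efficiency 1 of 10 points is filled.

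Translational efficiency sets the change in footprints against the change in RNA and asks whether footprints fell beyond the loss of RNA, both relative to their libraries. Of the 5 tested members, 1 was called in SH2, the fall of MT1X, against 2.46% of genes called lower and 1.44% called higher. With the replicate number as a block, the count over all genes rose from 489 to 755. In SH3 none of the 5 passed in edgeR (0.311% of genes called lower), with MT1E and MTF1 at an unadjusted p under 0.05 (0.0312 and 0.021) and none called by the DESeq2 Wald test. Between SH2 and SH3 none passed in edgeR either (0.016% called lower). There MT1X, MT2A and MTF1 had an unadjusted p under 0.05 (0.0013, 0.0207 and 0.00986), and DESeq2 called MT1X (-1.06, DESeq2 adjusted p 0.0367).

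MT1X had a ratio of mean footprint CPM to mean RNA CPM of 2.56 in SC, 1.30 in SH2 and 2.64 in SH3. SH2 alone departed from SC, by -0.98 on the log2 scale (edgeR adjusted p 0.0499, SE 0.28), while SH3 stood at 0.084 (edgeR adjusted p 0.942, SE 0.27). The SH2 call sat at the threshold. It was lost in 9 of 14 alternatives, among them DESeq2 size factors (edgeR adjusted p 0.0536) and the omission of SC replicate 2 (-0.64, edgeR adjusted p 0.168), SC replicate 3 (edgeR adjusted p 0.137) or any 1 SH2 replicate (0.0577 to 0.186). Another was a block joining RNA and footprint libraries of the same number (-0.99, edgeR adjusted p 0.101). In SC and SH2 that block joins RNA library 1 with a footprint library it did not go with, so its result cannot decide on the call.

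MT1E had ratios of 1.95 in SC, 0.925 in SH2 and 1.01 in SH3. The log2 differences of -1.06 in SH2 (edgeR adjusted p 0.129, SE 0.38) and -0.93 in SH3 (edgeR adjusted p 0.327, SE 0.40) missed the threshold. In SH2 it was passed with the replicate block (-1.04, edgeR adjusted p 0.0444), with no filter on low counts (-1.07, edgeR adjusted p 0.023) and without SH2 replicate 2 (-1.55, edgeR adjusted p 0.039). MT2A, at 1.13 in SC, 0.75 in SH2 and 1.12 in SH3, gave -0.60 in SH2 (edgeR adjusted p 0.18, SE 0.24), past the threshold without SC replicate 1 (-0.86, edgeR adjusted p 0.0435), and 0.0050 in SH3 (edgeR adjusted p 1, SE 0.24). SLC30A1 gave -0.51 in SH2 (edgeR adjusted p 0.212, SE 0.22) and -0.079 in SH3 (edgeR adjusted p 0.927, SE 0.21). MTF1 gave -0.20 in SH2 (edgeR adjusted p 0.765, SE 0.28) and 0.60 in SH3 (edgeR adjusted p 0.281, SE 0.24). Among 10335 genes, the SC ratio of MT1X ranked at percentile 97.1 and that of MT1E at 91.9, with MT2A at 64.9, SLC30A1 at 61.7 and MTF1 at 11.5, against a median ratio of 0.888. How reads of close copies were assigned is not given, and it may differ between RNA and footprints. The ratios and ranks of the metallothioneins therefore describe the assigned counts only.

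Counts of close copies can pass from one symbol to another, so the 5 metallothioneins were also summed. The summed RNA was 996, 555 and 791 CPM in SC, 443, 339.7 and 399 in SH2 and 344, 414 and 341 in SH3. In footprints the sums were 927, 1091 and 955 CPM, then 286, 329 and 332, then 375, 520.1 and 424. Hairpin libraries lay under every SC library in both measures, at 50.5% and 46.9% of the SC mean in RNA and 31.9% and 44.4% in footprints. Fitted as 1 feature beside all other genes, the sum changed by -0.99 (SE 0.17) and -1.09 (SE 0.17) in RNA and by -1.65 (SE 0.14) and -1.17 (SE 0.14) in footprints, for SH2 and SH3. In translational efficiency the sum changed by -0.67 (SE 0.234) in SH2 and by -0.062 (SE 0.233) in SH3. The difference between SH2 and SH3 was -0.61 (SE 0.235).

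MT2A held most of this sum in every group. Counts are not corrected for gene length here, so a share is compared only with the same gene's share elsewhere. MT2A took 86.5% ± 0.819 of the summed RNA counts with SC, 83.8% ± 2.57 with SH2 and 87.1% ± 0.379 with SH3 (SD, n = 3). In footprints its share was 77.0% ± 3.07, 78.2% ± 1.59 and 80.8% ± 2.35. MT1E took 10.5% to 17.9% of footprint counts in SC, 7.50% to 14.3% in SH2 and 4.61% to 6.94% in SH3, the one treatment whose range lay apart from SC. The footprint share of MT1X was 8% to 12% in SC, 8.09% to 15.1% in SH2 and 12.1% to 15.3% in SH3, just above SC.

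**Figure D4:**
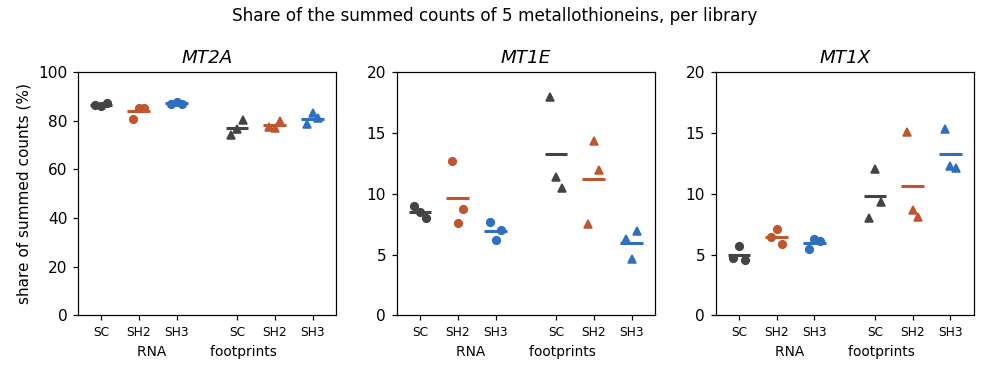
Share of the summed counts of MT1E, MT1F, MT1G, MT1X and MT2A taken by MT2A, MT1E and MT1X in each RNA (circles) and footprint (triangles) library, with a line at the mean of 3 replicates. In SH3 footprints the MT1E share is 4.61% to 6.94%, under the 10.5% to 17.9% of SC.

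Some metallothionein genes had footprints and no RNA counts. MT1HL1, an MT1-like gene outside the chromosome 16 cluster, had 110 footprint counts and 0 RNA counts over 9 libraries of each kind. Its footprints numbered 10, 20 and 32 in SC, 8, 17 and 16 in SH2 and 3, 1 and 3 in SH3. The change in SH2 was -0.21 (edgeR adjusted p 0.748, SE 0.48). Every SH3 library was at or under the floor of 3 counts, so no fold is given there. The call of MT1HL1 as lower in SH3 (edgeR adjusted p 0.017) rests on these few counts. MT1M likewise had 7 footprint counts, all in SC, and 0 RNA counts. MT1A had 32, 4 and 7 footprint counts in SC and at most 1 in any hairpin library. How many footprints of each member were assigned to another copy was not tested.

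Other zinc exporters also included genes with lower RNA. Of 10 further exporters of the SLC30 type, 6 were tested in RNA. In SH2, 4 were called lower and 0 higher, with a median log2 change of -0.43 against 0.012 over all genes tested. In SH3, 3 were lower and 1 higher, with a median of -0.20 against 0.034. SLC30A4 changed by -0.58 (edgeR adjusted p 0.00626, SE 0.16) and -1.11 (edgeR adjusted p 8.65e-05, SE 0.17), and SLC30A5, which loads zinc into the secretory pathway, by -0.37 and -0.48 (SE 0.094 each, edgeR adjusted p 0.0039 and 0.00072). Over all genes, 30.4% were called lower in SH2 RNA and 25.2% in SH3 RNA, and 31.1% and 27.8% were called higher. In footprints 1 of 6 was called lower in each hairpin, near the 23.2% and 19.0% (1968 of 10345) of all genes. These were TMEM163 in SH2 (-0.78 with SE 0.30, edgeR adjusted p 0.0467) and SLC30A7 in SH3 (-0.90 with SE 0.21, edgeR adjusted p 0.00381).

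Among zinc importers of the SLC39 family, more genes rose than fell in RNA. Of 14 listed, 10 were tested, and 7 were called higher in SH2 (31.1% of all genes were) and 5 in SH3 (27.8%), with 2 lower in each (30.4% and 25.2% of all genes). Medians were 0.76 and 0.31. SLC39A3 rose by 1.17 (edgeR adjusted p 2.03e-06, SE 0.12) and 0.83 (edgeR adjusted p 6.52e-05, SE 0.12), and SLC39A4, the importer of the gut, by 0.87 and 0.96 (SE 0.17 each, edgeR adjusted p 0.000437 and 0.000296). SLC39A7, which releases zinc from the endoplasmic reticulum, rose by 0.87 and 0.39, and SLC39A11 by 0.86 and 0.52. The 2 lower in both hairpins were SLC39A8 and SLC39A10. In footprints 6 were higher and 1 lower in SH2, where 21.0% of genes (2174 of 10345) were higher and 23.2% lower. In SH3, 1 was higher and 3 lower, where 16.9% of genes were higher and 19% lower. SLC39A14 footprints were called in opposite directions, at 0.65 in SH2 (edgeR adjusted p 0.0179) and -0.59 in SH3 (edgeR adjusted p 0.0374). SLC39A11 footprints rose by 0.76 and 0.61 (edgeR adjusted p 0.00355 and 0.0212), while SLC39A8 footprints changed by -0.63 and -1.37 (edgeR adjusted p 0.0251 and 0.000392). In translational efficiency SLC39A9 rose (0.74 with SE 0.17, edgeR adjusted p 0.0173) and SLC39A4 fell (-0.86 with SE 0.24, edgeR adjusted p 0.0448) in SH2, with none of the 10 called in SH3.

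**Figure D5:**
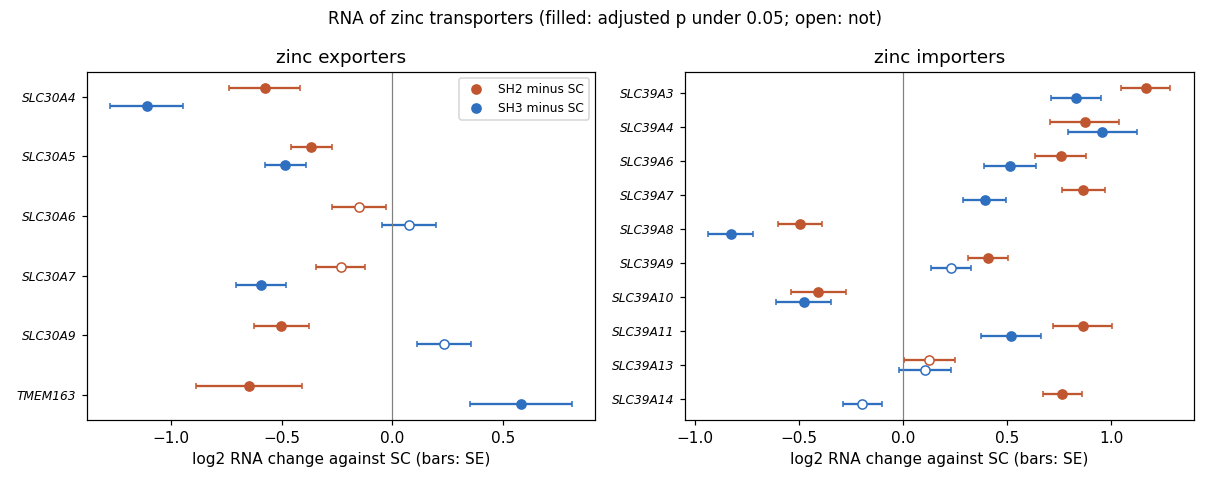
Log2 RNA change against SC with its SE for the 6 zinc exporters and 10 zinc importers tested, SH2 in orange and SH3 in blue, filled where the edgeR adjusted p was under 0.05. Of the importers 7 are higher in SH2 and 5 in SH3, while no exporter is called higher in SH2 and TMEM163 is in SH3.

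Copper-handling genes, which share metallothioneins as a metal store, were mixed. Of 9 tested in RNA, 2 were higher and 2 lower in SH2, and 3 were higher and 3 lower in SH3. Over all genes 31.1% were higher and 30.4% lower in SH2, and 27.8% and 25.2% in SH3, so these counts lie near or under the background. SOD1, the copper- and zinc-bound superoxide dismutase, fell by 0.47 (edgeR adjusted p 0.000542, SE 0.092) and 0.71 (edgeR adjusted p 2.82e-05, SE 0.092) on the log2 scale, and its copper chaperone CCS rose by 0.68 and 0.57. In footprints 3 of 9 were lower in each hairpin (23.2% of all genes in SH2 and 19% in SH3). Higher footprints were called for 1 in SH2 (21% of all genes) and 2 in SH3 (16.9%). COX17, the chaperone for cytochrome oxidase, changed by -0.95 (edgeR adjusted p 0.000602, SE 0.18) and -2.67 (edgeR adjusted p 9.73e-07, SE 0.22), and ATOX1 by -0.52 and -1.08. ATP7A, a copper exporter, rose in footprints to 226% of the SC mean in SH2 (edgeR adjusted p 0.00149) and by 1.06 on the log2 scale in SH3 (edgeR adjusted p 0.00624). In translational efficiency COX17 was called in SH2 (-0.90 with SE 0.21, edgeR adjusted p 0.0197) and ATOX1 in SH3 (-0.67 with SE 0.16, edgeR adjusted p 0.0492), both lower.

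In the list of metal and oxidant stress genes, more were called lower than higher in RNA. Of 10 tested in RNA, 4 were lower and 1 higher in SH2, and 6 were lower and 0 higher in SH3. Over all genes 30.4% were lower and 31.1% higher in SH2, and 25.2% lower and 27.8% higher in SH3. The one higher in SH2 was SRXN1 (0.39, edgeR adjusted p 0.0367). TXNRD1, a thioredoxin reductase, changed by -1.81 and -0.37, the cystine transporter subunit SLC7A11 by -0.54 and -1.55, NQO1 by -0.70 and -0.86 and GCLM by -0.41 and -0.49. In footprints 4 of 10 were lower in SH2 and 3 in SH3, with 0 higher. Over all genes 23.2% and 19.0% (1968 of 10345) were lower in footprints, and 21% and 16.9% higher. TXNRD1 changed there by -1.45 in SH2 (edgeR adjusted p 1.12e-06) and SLC7A11 by -1.85 in SH3 (edgeR adjusted p 3.33e-06). HSPA1A and HSPA1B are near-identical copies, so their single values are uncertain.

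Glucocorticoid-responsive genes went in both directions. Of 8 tested in RNA, 4 were higher and 3 lower in SH2, and 2 were higher and 3 lower in SH3. The list includes NR3C1, the gene of the receptor itself, which is among those higher in SH2 (0.32, edgeR adjusted p 0.0116). The shares over all genes were 31.1% higher and 30.4% lower in SH2, and 27.8% and 25.2% in SH3, so these counts are close to the background or a little above it. TSC22D3 rose by 1.57 (edgeR adjusted p 5.49e-07, SE 0.14) and 1.19 (edgeR adjusted p 1.11e-05, SE 0.14) and the kinase SGK1 by 0.84 and 0.71, whereas FKBP5 fell by 0.83 and 0.38 and the phosphatase DUSP1 by 0.84 and 1.29. In footprints 3 of 8 were higher in each hairpin (21.0% of all genes in SH2, 2174 of 10345, and 16.9% in SH3). Lower footprints were called for 2 of 8 in each, near the 23.2% of all genes in SH2 and 19% in SH3. PER1 footprints were higher by 1.15 and 0.64 (edgeR adjusted p 0.000775 and 0.0497).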

How the data were processed

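RNA and ribosome footprints were measured in 18 libraries. The authors deposited 1 table per gene symbol, which holds raw read counts, normalized signal (each count divided by a size factor), and the authors' deposited log2 fold changes and p-values from DESeq2, per the file headers. Bowtie 1.2.2 and DESeq2 are named in the submitters' processing notes, and the counting tool, annotation and build are not given in the sources used here. The name of the table carries the numbers 26 and 30, whose meaning no label states.

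Deposited counts were fitted in edgeR 4.0.16 (R 4.3.3) with filterByExpr, TMM scaling and the two-sided quasi-likelihood test, adjusted over all genes tested: 12710 genes in RNA, 10345 in footprints, and 12531 for translational efficiency, an interaction contrast over 18 libraries. SE is the absolute log2 change divided by the square root of F. CPM was scaled within a library kind. DESeq2 1.42.0 was an alternative. The fit was tested on simulated data. The floor of 3 counts covers counting error only. The members and lists were chosen with earlier results of these data known. All members were named, and in each list up to 4 genes with the largest change among those called in both hairpins or, where fewer than 2 were, in either. Whether replicate numbers pair libraries was checked by correlating deviations from the group mean. All 3 same-numbered pairs of SC and SH2 exceeded 0.1 (0.358, 0.295 and 0.302 in RNA and 0.286, 0.297 and 0.249 in footprints). Deviations from a mean of 3 libraries are not independent, so these values hint at a pairing of SC with SH2 and do not establish it. The fit with a replicate block is therefore given beside results it changes. Pairs with SH3 did not all exceed 0.1 (-0.0834 to 0.435 in RNA, -0.117 to 0.314 in footprints).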

Additional observations from a re-analysis of the deposited data

Results flagged for a closer look

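The effect of the 2 hairpins differed by their direct comparison for 4 members, each lower in SH2 than in SH3 (edgeR quasi-likelihood test, 3 libraries a group). In RNA the log2 difference was -0.92 for MTF1 (edgeR adjusted p 0.000107) and -0.75 for SLC30A1 (edgeR adjusted p 0.00046). In footprints it was -1.68 for MTF1 (edgeR adjusted p 0.000392), -1.15 for SLC30A1 (edgeR adjusted p 0.000367), -0.82 for MT1X (edgeR adjusted p 0.0151) and -0.53 for MT2A (edgeR adjusted p 0.0184). Groups of 3 libraries are too small for the search for single outlying libraries.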

How the results depend on the processing

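For 45 member values (5 genes in 9 comparisons), 547 of 582 alternative values kept their direction and side of the threshold, 23 lost a call, 11 gained one and 1 reversed. For MT1E, MT1X and MT2A, the alternatives counted here and above include the fit of the summed metallothioneins. That fit is not a value of the single gene and is no separate check of it. The reversal was MT1E footprints between SH2 and SH3, which became -0.48 when the 5 metallothioneins were summed, since MT2A dominates that sum. Over all genes, calls in RNA and footprints against SC stayed within 1.5 times under every alternative, and calls between SH2 and SH3 in footprints ranged from 1541 (without SH3 replicate 2) to 2104 with 1 replicate left out. Calls in translational efficiency (489 in SH2, 86 in SH3 and 2 between hairpins) were less stable, and the cause was not tested. They became 910, 355 and 229 with the DESeq2 Wald test, 184, 46 and 36 with only the groups compared, 191, 23 and 0 with a block joining RNA and footprint libraries of the same number (1178 at an unadjusted p under 0.05 for the last), and 35 between hairpins with no filter. With 1 replicate left out they ranged from 110 to 555, 10 to 244 and 0 to 1 (991 to 1543 at an unadjusted p under 0.05). With the replicate block they were 755, 150 and 75, and among members it turned MT1E RNA between hairpins (0.54, edgeR adjusted p 0.00893) and MT1E translational efficiency in SH2 (-1.04, edgeR adjusted p 0.0444) into calls and changed no other. No label states a pairing. Same-numbered RNA and footprint libraries correlated at -0.49 to 0.503. Depth limits MTF1 footprints (12 to 77 counts a library), MT1F and MT1G.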

Other observations

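The genes whose RNA pattern was most like the mean log2 CPM of MT1E, MT1X and MT2A over the 9 RNA libraries, among 12706 genes, were UQCR11 (r = 0.983), SCARB1 (0.982), COL4A4 (0.976), DKK1 (0.974) and FSTL3 (0.971). The 9 points fall into 3 treatments and share their libraries, and 188 genes had r above 0.9, so this is a description. The rule had named all 5 metallothioneins for the mean, and MT1F and MT1G were left out since they passed no filter. DKK1, a secreted inhibitor of Wnt signalling, changed by -0.91 in SH2 and -1.07 in SH3 RNA on the log2 scale, and SCARB1, a lipoprotein receptor, by -0.70 and -0.85.

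In the gene order of RefSeq (GRCh38.p14) the metallothionein cluster lies between BBS2 and NUP93. BBS2 RNA changed by 0.19 in SH2 (edgeR adjusted p 0.151) and -0.39 in SH3 (edgeR adjusted p 0.00981), and NUP93 RNA by -0.068 (edgeR adjusted p 0.521) and 0.20 (edgeR adjusted p 0.0689). Farther out on the BBS2 side, NUDT21 RNA fell by 0.65 (edgeR adjusted p 0.00176) and 0.39 (edgeR adjusted p 0.0368), and OGFOD1 RNA stood at -0.0084 (edgeR adjusted p 0.943) and 0.0015 (edgeR adjusted p 0.99). HERPUD1, on the NUP93 side, rose by 0.61 (edgeR adjusted p 0.000156) and 0.30 (edgeR adjusted p 0.026).

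In the authors' deposited table, the log2 fold changes of MT2A were -1.05 (SH2) and -1.11 (SH3) in RNA and -1.62 and -1.08 in footprints. Its columns for a further measure named RD were identical between SH2 and SH3 in all 17017 genes, in the fold change and in both p-values, and they were not used here.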
